A study of Homo sapiens with 6 samples.

Results

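The 40 genes described here are FOXM1 and 39 genes of mitosis: the transcription factor MYBL2, the cyclins and CDK1, mitotic kinases, the spindle checkpoint, the kinetochore, kinesins and spindle proteins, cytokinesis, and the machinery of anaphase. They were chosen by name for their function, with earlier results of these data known. Each was matched to a row of the expression table by its symbol, taking the most abundant row where more than 1 carried it. All 40 were found among the 35544 loci of the table, and all 40 passed the filter on low values that left 10295 loci to test (at least 1 FPKM in at least 3 of the 6 libraries). Rows of 36 members carry a single name, while those of CDC25B, PLK1, BUB1B and CENPA join several names, so the values of these 4 may include fragments of another gene.

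The libraries come from SiHa, an established human cervical cancer cell line. Cells received either a plasmid for the circular RNA hsa_circ_0005358 (3 libraries, called circ_0005358 here; the labels spell its name in 3 ways that differ in their digits, taken as the same RNA) or a vector plasmid (3 libraries), and polyA RNA was sequenced from cells collected at 72 h. Nothing in the labels tells whether the replicates were grown as separate cultures; the p-values therefore reflect the spread of these 6 libraries, and that spread may be technical. The circular RNA lacks a polyA tail, and its own level was not analysed here.

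Mitotic genes are transcribed periodically, with a peak in G2 and M phase. MYBL2 (B-MYB) binds the MuvB core complex and recruits the forkhead factor FOXM1 to promoters with a cell cycle genes homology region (CHR), while the same MuvB core bound to RB-like proteins and E2F4 (the DREAM complex) represses these genes in quiescent cells. FOXM1 is itself a cell cycle gene, and both FOXM1 and MYBL2 are often high in carcinomas, including those driven by papillomavirus.

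Promoters of members that the results turn on are shown to let the CHR and its usual partner, the CCAAT box bound by NF-Y, be seen. The windows are from RefSeq on GRCh38.p14 and run 5′ to 3′ from 250 bases before to 50 bases after the annotated start. The SPC25 window is chr2:168890381-168890680 on the minus strand, the CCNB2 window chr15:59104896-59105195 on the plus strand, the CCNA2 window chr4:121823834-121824133 on the minus strand, and the MYBL2 window chr20:43666864-43667163 on the plus strand. Capitals mark every match, on either strand, to the CHR in its usual form TTTGAA or its variant form TTCGAA, and to the box CCAAT, the forkhead motif GTAAACA and the E2F motif TTTNNCGC; no matches overlap each other in these windows.
SPC25: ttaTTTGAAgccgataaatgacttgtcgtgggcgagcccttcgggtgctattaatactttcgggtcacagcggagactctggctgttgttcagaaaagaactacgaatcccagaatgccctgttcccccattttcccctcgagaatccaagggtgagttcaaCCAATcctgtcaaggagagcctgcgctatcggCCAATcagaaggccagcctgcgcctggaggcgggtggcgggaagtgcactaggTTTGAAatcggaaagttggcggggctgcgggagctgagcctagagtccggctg
CCNB2: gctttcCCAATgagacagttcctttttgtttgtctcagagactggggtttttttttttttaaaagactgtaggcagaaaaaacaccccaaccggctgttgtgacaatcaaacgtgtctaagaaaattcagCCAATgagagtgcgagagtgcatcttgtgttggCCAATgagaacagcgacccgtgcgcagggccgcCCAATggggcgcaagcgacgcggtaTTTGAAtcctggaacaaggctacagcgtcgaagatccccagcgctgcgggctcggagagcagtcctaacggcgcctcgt
CCNA2: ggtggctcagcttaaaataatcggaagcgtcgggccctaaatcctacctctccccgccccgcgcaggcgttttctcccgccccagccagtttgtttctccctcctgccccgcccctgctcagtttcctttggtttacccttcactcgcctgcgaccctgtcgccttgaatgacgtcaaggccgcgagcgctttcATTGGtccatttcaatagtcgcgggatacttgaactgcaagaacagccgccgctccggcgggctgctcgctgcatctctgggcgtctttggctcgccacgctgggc
MYBL2: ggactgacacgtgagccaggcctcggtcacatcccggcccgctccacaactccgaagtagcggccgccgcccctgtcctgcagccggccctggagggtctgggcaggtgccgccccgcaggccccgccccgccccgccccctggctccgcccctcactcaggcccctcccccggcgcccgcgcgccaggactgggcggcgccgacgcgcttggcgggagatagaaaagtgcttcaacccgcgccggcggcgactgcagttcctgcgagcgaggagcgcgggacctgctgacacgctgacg
In SPC25, whose product joins the NDC80 complex, TTTGAA began 247 and 3 bases upstream of the start, and CCAAT began 88 and 56 bases upstream. CCNB2, which encodes cyclin B2, had TTTGAA at 29 bases upstream and CCAAT at 244, 120, 87 and 54 bases. In CCNA2, which encodes cyclin A2, the match to CCAAT lay on the other strand at 56 bases upstream. Other forms of the CHR, such as the letters CTTGAA in the CCNA2 window, were not searched and are not marked. The MYBL2 window held no match to any of the 5 motifs.

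Promoter windows were found for 32 of the 40 members; FOXM1, AURKA, TTK, BUB3, TPX2, RACGAP1, BIRC5 and UBE2C had no entry. TTTGAA was in 20 of the 32 windows (62.5%), against 15.4% of 27305 RefSeq promoter windows of the same length. CCAAT was in 23 of the 32 (71.9%), against 35.7% of all windows, and both motifs together were in 16 (50%), against 6.08%. The forkhead motif GTAAACA was in the CDK1 window alone (3.12%), against 3.41% of all windows, and TTTNNCGC was in 3 (9.38%), against 6.90%. TTCGAA was in 2 windows (6.25%), against 1.45%. A match is a run of letters and was not measured as a bound site in these cells.

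Of the 40 members, 2 rose and 1 fell with the circ_0005358 plasmid at an adjusted p under 0.05 (limma on log2(FPKM + 1), Benjamini-Hochberg over all 10295 loci). FOXM1 and SPC25 were the members that rose, and MYBL2 fell. The share called was 7.5% of the members, against 11.4% of all tested loci, of which 6.41% were higher and 4.96% lower. The median log2 fold change was -0.01 over the members, with 18 above 0 and 22 below, against 0.02 over all tested loci. None of the 40 changed by as much as 1.5-fold on the log2(FPKM + 1) scale, a size that 10.5% of all tested loci reached. The ratio of mean FPKM without the added 1, circ_0005358 over vector, was 1.53 for CCNA2.

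FOXM1 and MYBL2, the transcription factors of the group, were called in opposite directions. FOXM1 is at chr12:2857681-2877155 on the minus strand (GRCh38, ENSG00000111206). It had 35.03, 37.4 and 34.4 FPKM in the circ_0005358 libraries, against 27.99, 29.03 and 28.46 FPKM in the vector libraries. Every circ_0005358 library lay above every vector library, and the vector libraries were close together. The means were 35.6 ± 1.597 FPKM with circ_0005358 and 28.5 ± 0.518 FPKM with vector (SD, n = 3 each), a ratio of 1.25. The log2 fold change was 0.31 (SE 0.053, 95% interval 0.18 to 0.44, limma adjusted p = 0.0225), and exact permutation of the library labels (two-sided) had p = 0.1, the smallest that 3 against 3 libraries allow. FOXM1 was no longer past the threshold without circ_0005358 replicate 1 (adjusted p = 0.0579) or 3 (0.0581), or without vector replicate 1 (0.0886), 2 (0.0731) or 3 (0.0738). With no filter on low values its adjusted p was 0.0727.

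MYBL2, at chr20:43667019-43716496 on the plus strand (GRCh38, ENSG00000101057), was the most abundant member per length in the vector libraries. It had 70.3, 81.8 and 76.6 FPKM in the circ_0005358 libraries, against 95.4, 95.6 and 103.9 FPKM in the vector libraries. The groups were well apart, with the highest circ_0005358 value below the lowest vector value. MYBL2 averaged 76.2 ± 5.75 FPKM with circ_0005358 and 98.3 ± 4.85 FPKM with vector (SD, n = 3 each), a ratio of 0.776. Its log2 fold change was -0.36 (SE 0.075, 95% interval -0.55 to -0.18, limma adjusted p = 0.0372, exact permutation p = 0.1). The call was lost without circ_0005358 replicate 1 (adjusted p = 0.077) or 3 (0.108), and without vector replicate 1 (0.096), 2 (0.101) or 3 (0.105). With no filter on low values the adjusted p was 0.123.

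The FPKM ratio of FOXM1 to MYBL2 within a library was 0.498, 0.457 and 0.449 in the circ_0005358 libraries, against 0.293, 0.304 and 0.274 in the vector libraries. Since the groups were already apart in opposite directions for each gene, the ratio adds no separate evidence. The 50 tested loci nearest to FOXM1 on its chromosome had a median log2 fold change of 0.00, with 3 called higher and 3 lower, and those nearest to MYBL2 had a median of -0.03, also with 3 higher and 3 lower. For the 50 loci around SPC25 the median was 0.12, with 3 higher and 3 lower. Over the 40 members these medians ran from -0.13 around ANLN to 0.25 around KIF23, where 14 loci were called higher. They were 0.20 around CCNB2 (13 higher), 0.20 around BUB1 and 0.15 around PRC1, beside log2 fold changes of 0.23, 0.15 and 0.20 for these genes and 0.15 for KIF23. Around BUB1B the median was 0.19, beside a log2 fold change of 0.04 for BUB1B itself. For comparison with these counts among 50 loci, 6.41% of all tested loci were called higher and 4.96% lower. The part of the surrounding loci in the members' values was not tested. RHNO1, a checkpoint gene that lies head to head with FOXM1, shared a row with TULP3, which had 8.5, 8.17 and 13.8 FPKM with circ_0005358, against 9.41, 9.51 and 13.75 FPKM with vector. These ranges overlap, and the log2 fold change of that row was -0.11 (limma adjusted p = 0.818).

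**Figure D1:**
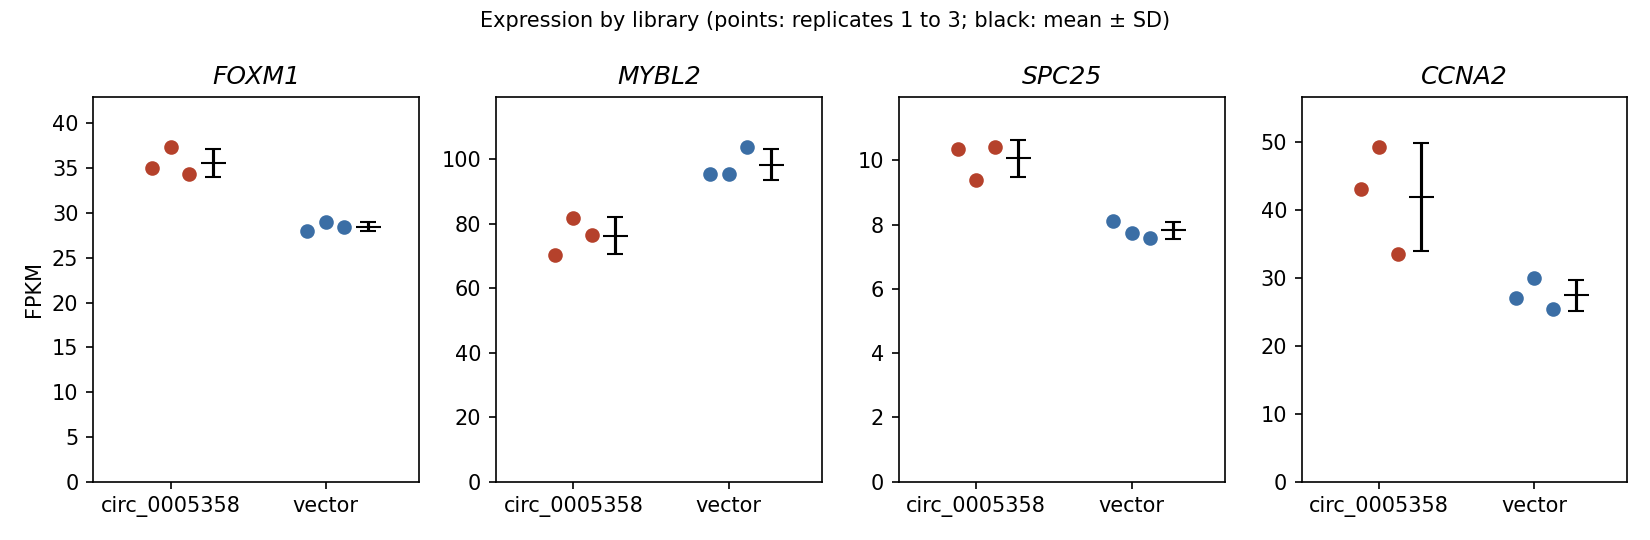
FPKM (y axes from 0) of FOXM1, MYBL2, SPC25 and CCNA2 in circ_0005358 and vector libraries; each point is a library, replicates 1 to 3 run left to right, and the black bar is the mean ± SD of 3. The groups do not overlap for any of the 4 genes, MYBL2 alone is lower with circ_0005358, and CCNA2 spreads between 33.5 and 49.3 FPKM with circ_0005358.

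Among the cyclins, CDK1 and the CDC25 phosphatases that activate it, none of the 6 members passed the test, and their median log2 fold change was 0.10. CCNA2 encodes cyclin A2, which acts in S phase and at entry into mitosis; it is at chr4:121816444-121823933 on the minus strand (GRCh38, ENSG00000145386). It had 43.0, 49.3 and 33.5 FPKM in the circ_0005358 libraries, against 26.96, 29.9 and 25.4 FPKM in the vector libraries. The groups did not overlap, but circ_0005358 replicate 3 lay nearer to the vector libraries than to the other circ_0005358 libraries. CCNA2 had the largest fold change of the 40 members, at a log2 fold change of 0.58 (SE 0.15, 95% interval 0.20 to 0.96), and did not pass the test (limma adjusted p = 0.0722). Without circ_0005358 replicate 3 its log2 fold change was 0.73 and its adjusted p 0.0336.

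The B-type cyclins, which drive CDK1 through mitosis, differed from each other in their values. CCNB2 (cyclin B2) had 34.5, 33.8 and 34.1 FPKM with circ_0005358, against 27.6, 32.8 and 27.03 FPKM with vector. All circ_0005358 values were above the vector values, of which vector replicate 2 was the highest, and the log2 fold change was 0.23 (limma adjusted p = 0.162). CCNB1 (cyclin B1), the most abundant of the 6, had 87.2, 84.3 and 84.8 FPKM with circ_0005358, against 87.7, 90.0 and 85.7 FPKM with vector. Those groups overlapped (log2 fold change -0.04, 95% interval -0.15 to 0.07, limma adjusted p = 0.634). The catalytic subunit CDK1 and the phosphatases CDC25B and CDC25C overlapped between groups and had log2 fold changes of 0.15, 0.05 and 0.02.

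None of the 6 mitotic kinases passed the test, and their median log2 fold change was -0.08. AURKA, the spindle pole kinase and the most abundant of the 6, had 49.4, 51.3 and 53.4 FPKM with circ_0005358, against 53.7, 57.3 and 51.2 FPKM with vector. Its groups overlapped (log2 fold change -0.07, limma adjusted p = 0.523). BUB1, a kinase of the spindle checkpoint, had 11.7, 11.8 and 12.7 FPKM with circ_0005358, against 10.9, 11.1 and 10.3 FPKM with vector. NEK2, which separates the centrosomes, had 17.2, 17.9 and 18 FPKM with circ_0005358, against 19.2, 18.8 and 19.3 FPKM with vector. BUB1 was higher in every circ_0005358 library (log2 fold change 0.15, limma adjusted p = 0.177) and NEK2 lower in every one (log2 fold change -0.11, limma adjusted p = 0.223), both by small amounts. PLK1, a kinase that acts from mitotic entry to cytokinesis, AURKB, the chromosomal passenger kinase, and TTK, the checkpoint kinase MPS1, overlapped between groups, with log2 fold changes of -0.09, 0.03 and -0.15.

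The 3 remaining genes of the spindle checkpoint, which holds back anaphase until chromosomes are attached, were not called either. BUB3, the most abundant of them, had 18.4, 17.0 and 17.5 FPKM with circ_0005358, against 18.9, 20.6 and 18.2 FPKM with vector. Only the highest circ_0005358 value reached into the vector range, and the log2 fold change was -0.12 (limma adjusted p = 0.315). MAD2L1, which encodes the checkpoint protein MAD2, was lower in every circ_0005358 library (log2 fold change -0.13, limma adjusted p = 0.286). BUB1B, which encodes BUBR1, had a log2 fold change of 0.04 and overlapping groups.

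Of the 6 kinetochore and centromere members, SPC25 rose and the other 5 did not pass the test. SPC25 encodes a subunit of the NDC80 complex, which couples kinetochores to microtubules; it is at chr2:168834132-168913371 on the minus strand (GRCh38, ENSG00000152253), and its promoter is shown above. SPC25 had 10.4, 9.39 and 10.4 FPKM with circ_0005358, against 8.12, 7.75 and 7.59 FPKM with vector. The lowest circ_0005358 value was above the highest vector value. The means were 10.06 ± 0.581 FPKM with circ_0005358 and 7.82 ± 0.273 FPKM with vector (SD, n = 3 each), a ratio of 1.29. The log2 fold change was 0.33 (SE 0.064, 95% interval 0.17 to 0.49, limma adjusted p = 0.0337, exact permutation p = 0.1). The call was lost without circ_0005358 replicate 1 (adjusted p = 0.0931) or 3 (0.108), or without vector replicate 1 (0.0872), 2 (0.114) or 3 (0.102). It was also lost with no filter on low values (0.0934) and when libraries were rescaled to the same sum (0.0572), by median ratios (0.0507) or by quantiles (0.0549).

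Other subunits of the NDC80 complex were not called. NDC80 had 15.5, 15.7 and 17.6 FPKM with circ_0005358, against 16.1, 17.4 and 17.0 FPKM with vector, and NUF2 had 8, 7.19 and 9.67 FPKM with circ_0005358, against 8.55, 8.22 and 8.13 FPKM with vector. Both overlapped between groups, with log2 fold changes of -0.05 and -0.01. SPC24, the direct partner of SPC25, was picked out after its values were seen; it had 9.54, 4.53 and 9.82 FPKM with circ_0005358, against 7.38, 7.81 and 8.63 FPKM with vector, and circ_0005358 replicate 2 was the lowest. CENPE, a kinetochore motor, had 10.3, 10.2 and 11.3 FPKM with circ_0005358, against 11.6, 12.5 and 11.6 FPKM with vector. It was lower in every circ_0005358 library (log2 fold change -0.15, limma adjusted p = 0.197). CENPF, a large kinetochore protein and the most abundant of the 6, had 28.2, 28.97 and 32.7 FPKM with circ_0005358, against 27.9, 32.4 and 29.6 FPKM with vector, with a log2 fold change of 0.00 and a 95% interval from -0.21 to 0.21. CENPA, the histone H3 variant of centromeres, was on average the lowest of the 40 members at 3.21 to 5.23 FPKM with circ_0005358, against 3.86 to 4.05 FPKM with vector.

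The 9 kinesins and spindle proteins held no called gene, and their median log2 fold change was 0.01. TPX2, the activator of AURKA on the spindle, had 90.4, 87.9 and 85.8 FPKM with circ_0005358, against 82.3, 96.0 and 84.9 FPKM with vector. The circ_0005358 values fell inside the vector range. HMMR, a spindle protein and hyaluronan receptor, had 20.7, 18.2 and 23.5 FPKM with circ_0005358, against 22.5, 27.6 and 25.6 FPKM with vector. Its groups overlapped at 1 library, circ_0005358 replicate 3, and the log2 fold change was -0.27 (limma adjusted p = 0.22). PRC1, which bundles the microtubules of the midzone, had 38.1, 41.7 and 43.8 FPKM with circ_0005358, against 37.2, 38.6 and 31.8 FPKM with vector, again with an overlap at a single circ_0005358 library (log2 fold change 0.20, limma adjusted p = 0.255). KIF11 (Eg5), the motor that separates spindle poles, had 26.6, 26.9 and 28.3 FPKM with circ_0005358, against 30.6, 28.96 and 28.8 FPKM with vector. Every circ_0005358 library was lower (log2 fold change -0.11, limma adjusted p = 0.264). The kinesins KIF14, KIF20A, KIF23, KIF2C and KIF4A overlapped between groups, with log2 fold changes from -0.07 to 0.15.

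Among the 4 members of cytokinesis and the passenger complex, none passed the test, and the median log2 fold change was -0.13. BIRC5 (survivin), a subunit of the chromosomal passenger complex, had 20.6, 20.8 and 22.1 FPKM with circ_0005358, against 17.9, 19.8 and 17.4 FPKM with vector. It was higher in every circ_0005358 library (log2 fold change 0.20, limma adjusted p = 0.138). ANLN (anillin), a scaffold of the contractile ring and the most abundant of the 4, had 49.8, 55.6 and 55.4 FPKM with circ_0005358, against 53.8, 65.3 and 59.8 FPKM with vector. Its groups overlapped (log2 fold change -0.15, limma adjusted p = 0.353). ECT2, which activates RhoA at the furrow, and RACGAP1, the centralspindlin subunit that binds ECT2, overlapped as well, with log2 fold changes of -0.10 and -0.26.

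The 4 members that act at anaphase were also not called, with a median log2 fold change of -0.08. CDC20, the mitotic activator of the anaphase promoting complex (APC/C), had 67.9, 71.5 and 69.9 FPKM with circ_0005358, against 70.5, 75.03 and 75.5 FPKM with vector. Circ_0005358 replicate 2 reached into the vector range, and the log2 fold change was -0.08 (limma adjusted p = 0.398). UBE2C, the ubiquitin-conjugating enzyme of the APC/C, had 64.5, 74.4 and 65.4 FPKM with circ_0005358, against 71.6, 70.3 and 72.8 FPKM with vector. PTTG1 (securin) and ESPL1 (separase, the protease that cuts cohesin) had log2 fold changes of 0.08 and -0.12. All of these groups overlapped.

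**Figure D2:**
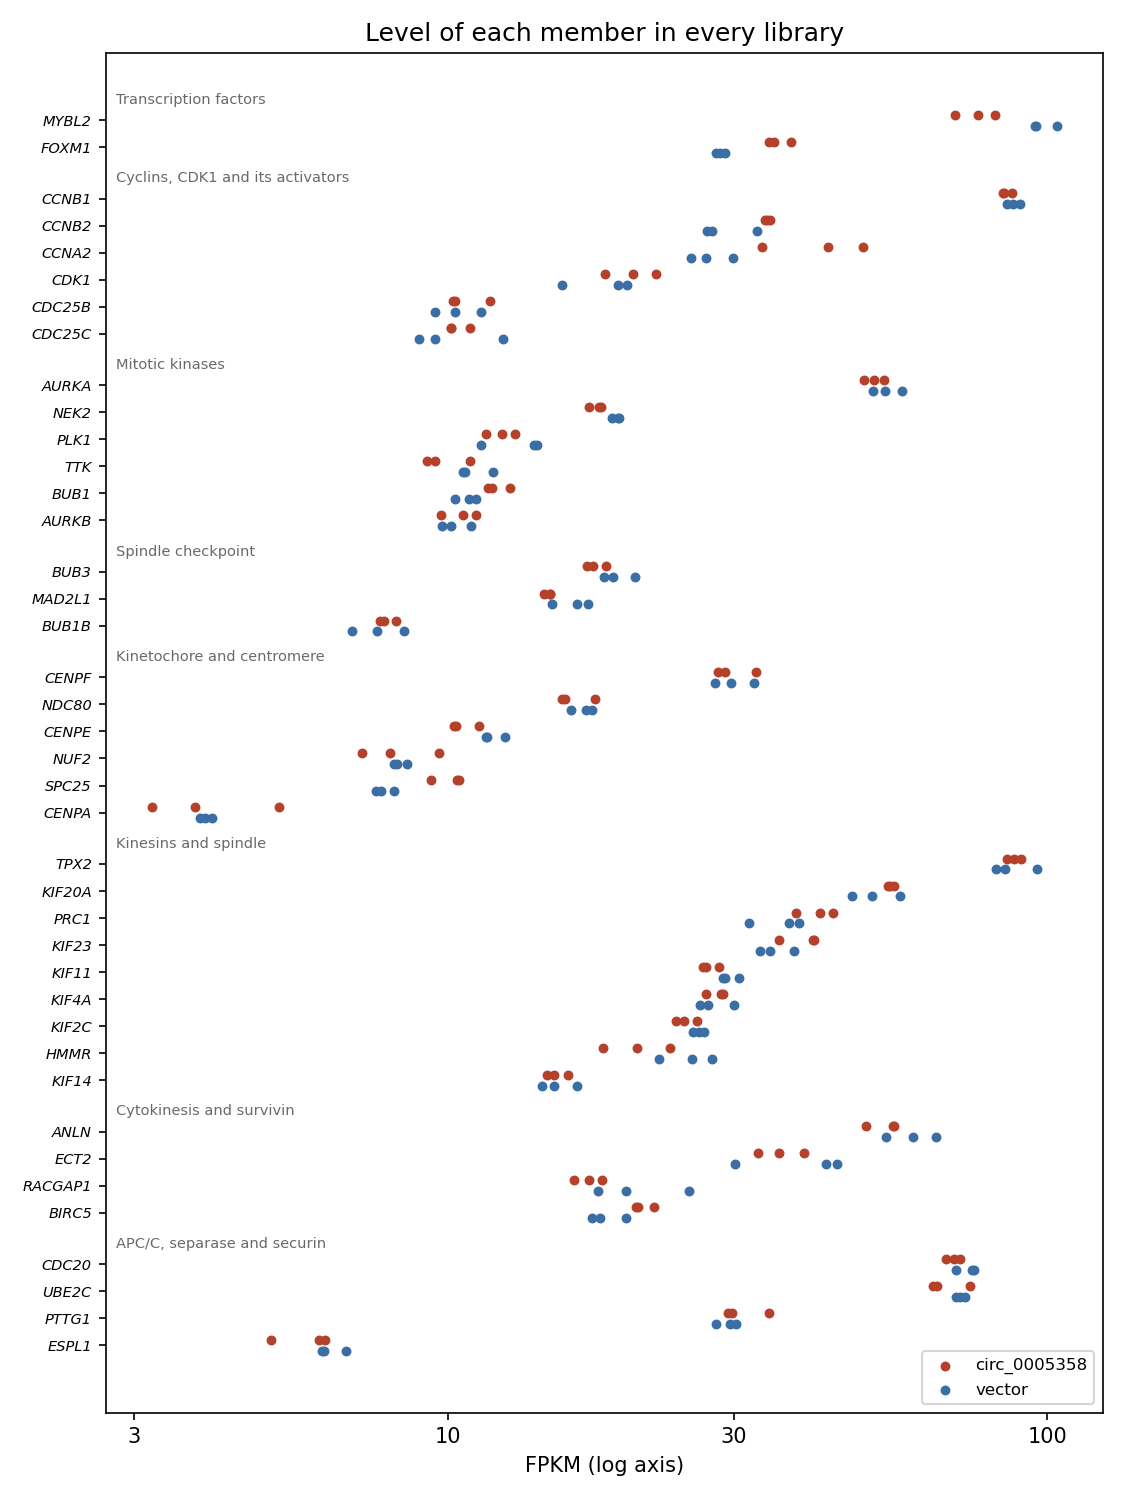
FPKM on a log axis of the 40 members, grouped by role, in the circ_0005358 libraries (red, upper row of each gene) and vector libraries (blue, lower row); each point is a library. Levels run from 3.21 FPKM for CENPA to 103.9 FPKM for MYBL2, and for most members the colours overlap.

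Counting the members whose groups did not overlap, 6 were higher with circ_0005358 (FOXM1, SPC25, CCNA2, CCNB2, BUB1 and BIRC5) and 5 lower (MYBL2, NEK2, MAD2L1, CENPE and KIF11). These 11 are 27.5% of the 40, against 35.8% of all tested loci, of which 19.8% were higher and 15.9% lower. At an unadjusted limma p under 0.05 there were 7 members (17.5%), FOXM1, MYBL2, SPC25, CCNA2, CCNB2, BUB1 and BIRC5, against 27.3% of all tested loci. The members' shares were below those of the whole table by these counts. The counts share genes and libraries, and the differences in share were not tested.

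The members were measured precisely relative to the rest of the table. Their residual SD on the log2 scale had a median of 0.0924, against 0.130 over all tested loci, and the 95% interval extended a median of 0.189 to each side, against 0.258. For 38 of the 40 (95%) the whole 95% interval of the log2 fold change lay within 1.5-fold in either direction, against 61.0% of all tested loci. CCNA2 and RACGAP1 were the exceptions. On the log2(FPKM + 1) scale, a change of 1.5-fold therefore lies outside the interval for all other uncalled members. Among the 6225 tested loci within the members' range of mean level, 11.1% were called.

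**Figure D3:**
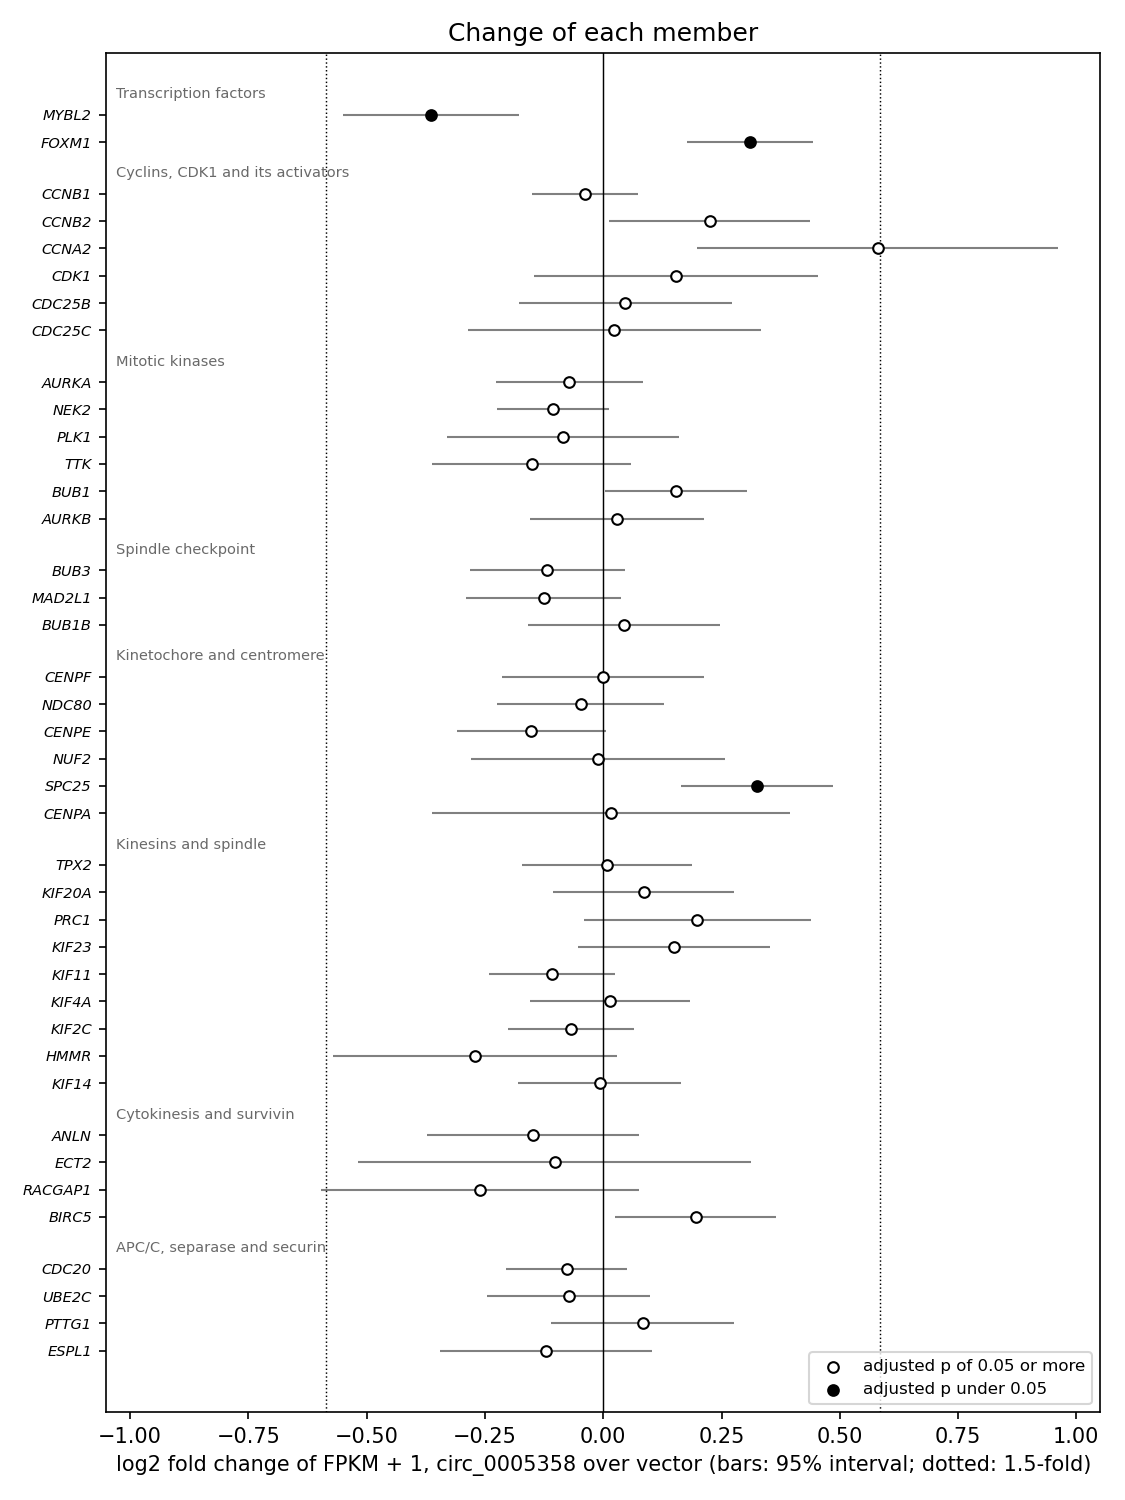
Log2 fold change of FPKM + 1, circ_0005358 over vector (x axis), of each member grouped by role; bars are 95% intervals, filled points are past the adjusted p threshold, and dotted lines mark 1.5-fold. FOXM1 and SPC25 are filled to the right of 0 and MYBL2 to the left, and the intervals of CCNA2 and RACGAP1 cross a dotted line.

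Summed over the 40 members, the level was 1167, 1203 and 1201 FPKM in the circ_0005358 libraries, against 1179, 1263 and 1169 FPKM in the vector libraries. The groups overlapped, and vector replicate 2 was the highest library. The means were 1190 ± 20.4 FPKM with circ_0005358 and 1204 ± 51.9 FPKM with vector (SD, n = 3 each), a ratio of 0.989, so the difference was smaller than the spread between libraries. In bulk RNA, fewer cells in mitosis and less RNA per mitotic cell cannot be told apart.

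Vector replicate 2 stood above the other vector libraries across the members: 30 of the 40 were above their vector mean in it, against 12 in vector replicate 1 and 11 in vector replicate 3. The circ_0005358 libraries had 15, 18 and 18 members above the vector mean. Without vector replicate 2 the ratio of the summed levels, circ_0005358 over vector, was 1.014.

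**Figure D4:**
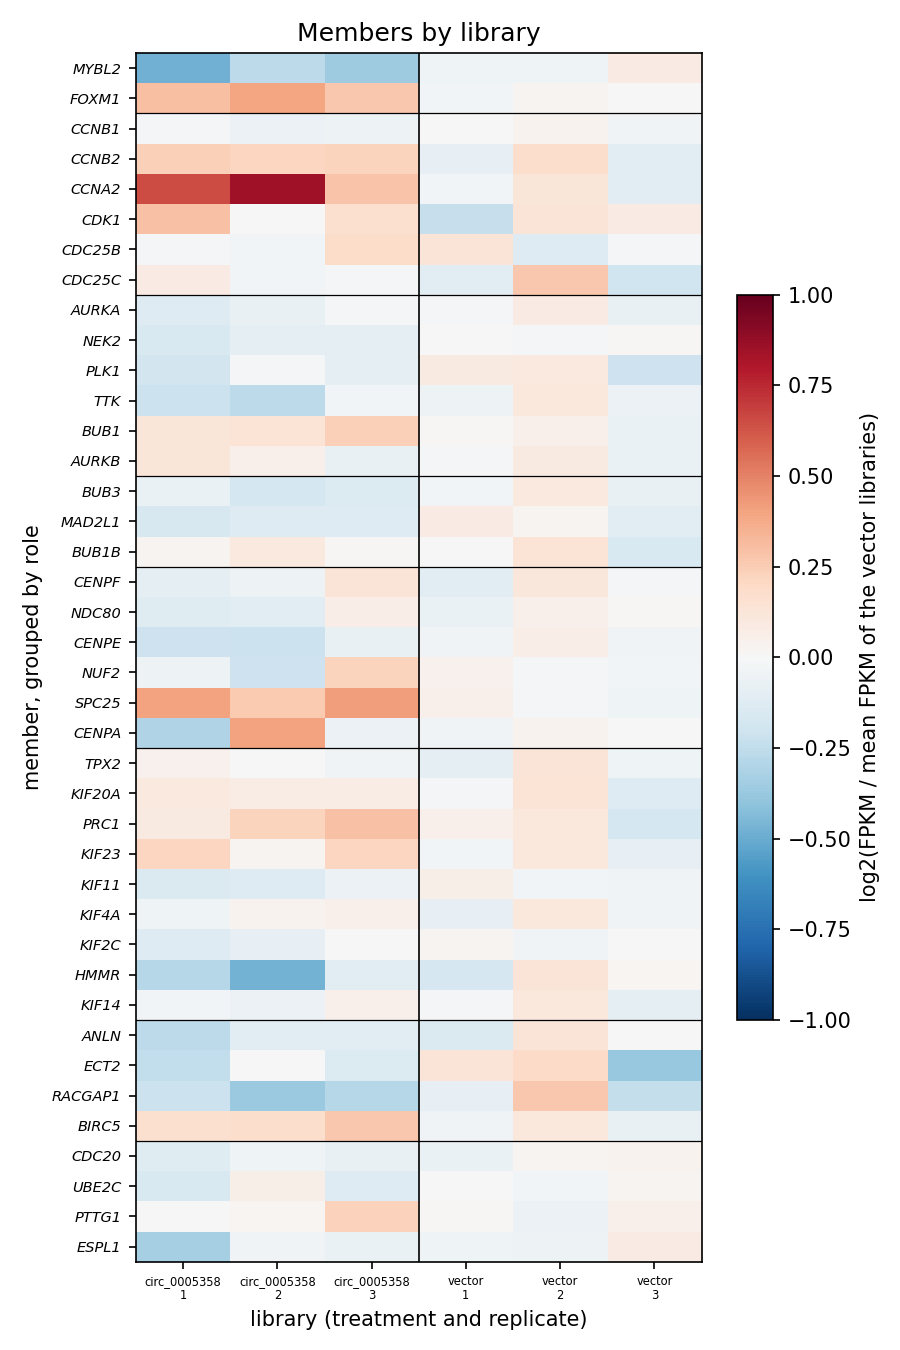
Log2 of FPKM over the mean FPKM of the vector libraries (colour scale from -1 to 1) for the 40 members (rows, grouped by role) in the circ_0005358 libraries (left of the line) and the vector libraries (right). MYBL2 is blue and FOXM1, SPC25 and CCNA2 are red in all 3 circ_0005358 libraries, most other rows are pale, and vector replicate 2 is pale red in most rows.

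Members with and without TTTGAA in the promoter window had similar medians. The 20 members with the motif had a median log2 fold change of -0.01, with 8 above 0 and SPC25 called. The 12 members without it had a median of 0.03, with 7 above 0 and MYBL2 called. These 12 include BUB1, whose window holds the variant TTCGAA, and CCNA2, whose window holds the letters CTTGAA, a form that was not searched. The split is therefore by the letters TTTGAA and not by the presence of a CHR. The 8 with no promoter entry, FOXM1 among them, had a median of -0.07.

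Genes that work with the members were read from 10 lists of 210 entries, of which 190 loci were tested. In these lists 20 loci rose and 2 fell (11.6%), against 11.4% of all tested loci, and the median log2 fold change was 0.05. With libraries rescaled to the same sum, 15 rose and 4 fell. No member of the MuvB and DREAM list (12 tested, median log2 fold change -0.05) or of the forkhead family other than FOXM1 (15 tested, median 0.04) passed the test. At an unadjusted limma p under 0.05 there were 1 and 2 genes (8.33% and 13.3%), against 27.3% of all tested loci. LIN52, a MuvB subunit, had the smallest p of its list; it had 1.48, 5.72 and 2.61 FPKM with circ_0005358, against 6.29, 6.44 and 7.16 FPKM with vector (log2 fold change -0.96, limma adjusted p = 0.163). FOXJ2 had the smallest p among the forkhead genes, with 9.52, 9.67 and 9.06 FPKM with circ_0005358, against 10.7, 11.2 and 11.5 FPKM with vector (log2 fold change -0.22, limma adjusted p = 0.0631). In both genes every circ_0005358 library was below every vector library. Of 6 tested loci from the short arm of chromosome 12, which carries FOXM1, 1 was called (16.7%). It was the transcription factor gene TEAD4, which rose (11.8 FPKM with circ_0005358, 9.43 FPKM with vector, log2 fold change 0.29, limma adjusted p = 0.0444).

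Among 20 tested genes that control entry into mitosis, 1 was called (5%, against 11.4% of all tested loci). It was MASTL, the Greatwall kinase that restrains PP2A (log2 fold change 0.42, limma adjusted p = 0.0271). Of 33 other G2/M genes, 3 rose (9.09%, against 6.41% of all tested loci called higher and 11.4% called in either direction). They were PBK, a mitotic kinase, at 29.1 FPKM with circ_0005358 and 15.8 FPKM with vector (log2 fold change 0.83, limma adjusted p = 0.00412), PSRC1, a spindle protein (0.59), and the kinesin KIF20B (0.35). The kinetochore list of 29 tested genes held 2 that rose (6.9%), CENPM (0.60), a centromere protein, and MAD2L2 (0.29). MAD2L2 was counted with this list but is not a kinetochore subunit. The APC/C list of 16 held 3 that rose (18.8%), the subunits ANAPC1 (0.33), ANAPC2 (0.55) and CDC26 (0.37). Of 22 condensin and cohesin genes, SMC2 (0.52), a condensin subunit, and WAPL (0.49), which releases cohesin, rose (9.09%). No gene of these lists was called lower, so their shares also stand beside the 6.41% of all tested loci called higher. Each of these lists had a median log2 fold change between 0.05 and 0.10. TEAD4, KIF20B, MAD2L2, ANAPC1 and CDC26 each lost the call whichever library was left out, with adjusted p from 0.0501 to 0.141 for these 5, while PBK, PSRC1 and ANAPC2 kept it without each library in turn. MASTL, CENPM, SMC2 and WAPL lost it without some libraries, among them circ_0005358 replicate 1 (adjusted p = 0.0806, 0.115, 0.0825 and 0.112), circ_0005358 replicate 3 (0.0907, 0.111, 0.0907 and 0.125) and vector replicate 1 (0.0953, 0.144, 0.0832 and 0.0899). Further losses came without vector replicate 3 for MASTL (0.0748), without circ_0005358 replicate 2 for CENPM (0.13) and WAPL (0.0929), and without vector replicate 2 for CENPM (0.143), SMC2 (0.0925) and WAPL (0.0787). CENPM was called in 4 of 17 alternatives, and lost the call at pseudocounts of 0.1 (0.0511) and 0.5 (0.0501), with no variance trend (0.0507) and under each of the 3 other scalings (0.0512 to 0.0595). With libraries rescaled to the same sum, WAPL (limma adjusted p = 0.0675) and KIF20B (0.0577) were not called. WAPL was also lost by median ratio scaling (0.0597), and KIF20B (0.061) and TEAD4 (0.054) after quantile normalization. With no filter on low values all of these but PBK, PSRC1 and ANAPC2 lost the call.

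Genes of DNA replication licensing are expressed earlier in the cycle than the mitotic members. Of 21 tested, 7 rose and none fell (33.3%, against 6.41% of all tested loci called higher and 11.4% called in either direction). The median log2 fold change was 0.17, beside -0.01 for the 40 members. MCM6, a subunit of the replicative helicase, had 64.3, 57.3 and 63.8 FPKM with circ_0005358, against 34.9, 35.3 and 33.5 FPKM with vector. It was higher in every circ_0005358 library by a wide margin (log2 fold change 0.82, limma adjusted p = 0.00185). MCM7, MCM4 and the origin recognition subunit ORC1 rose by log2 fold changes of 0.50, 0.62 and 0.53, and all 4 kept their calls without each library in turn. Of the other 3 that rose, MCM5 lost the call without vector replicate 1 (adjusted p = 0.0506) and CDC45 without circ_0005358 replicate 3 (0.0544) or vector replicate 1 (0.0551) or 2 (0.0598), while MCM10 kept it only without circ_0005358 replicate 3 (0.056 to 0.135 without each of the others). MCM10 and CCND3, the cyclin D3 gene, also lost theirs under each of the 3 other scalings (adjusted p from 0.0511 to 0.0565). Among 16 tested genes of the G1 cyclins, RB and E2F, CCND3 rose (0.33), while CCNE1 (cyclin E1) and CDK6 fell (-0.37 and -0.72). These 3 are 18.8% of the tested list, against 11.4% of all tested loci called. CDK6 averaged 1.002 FPKM with circ_0005358 and 2.29 FPKM with vector, and its call held without each library, whereas CCND3 and CCNE1 lost theirs whichever library was left out, with adjusted p from 0.0564 to 0.132. The lists share the same libraries with the members and no test was made of the difference between lists.

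**Figure D5:**
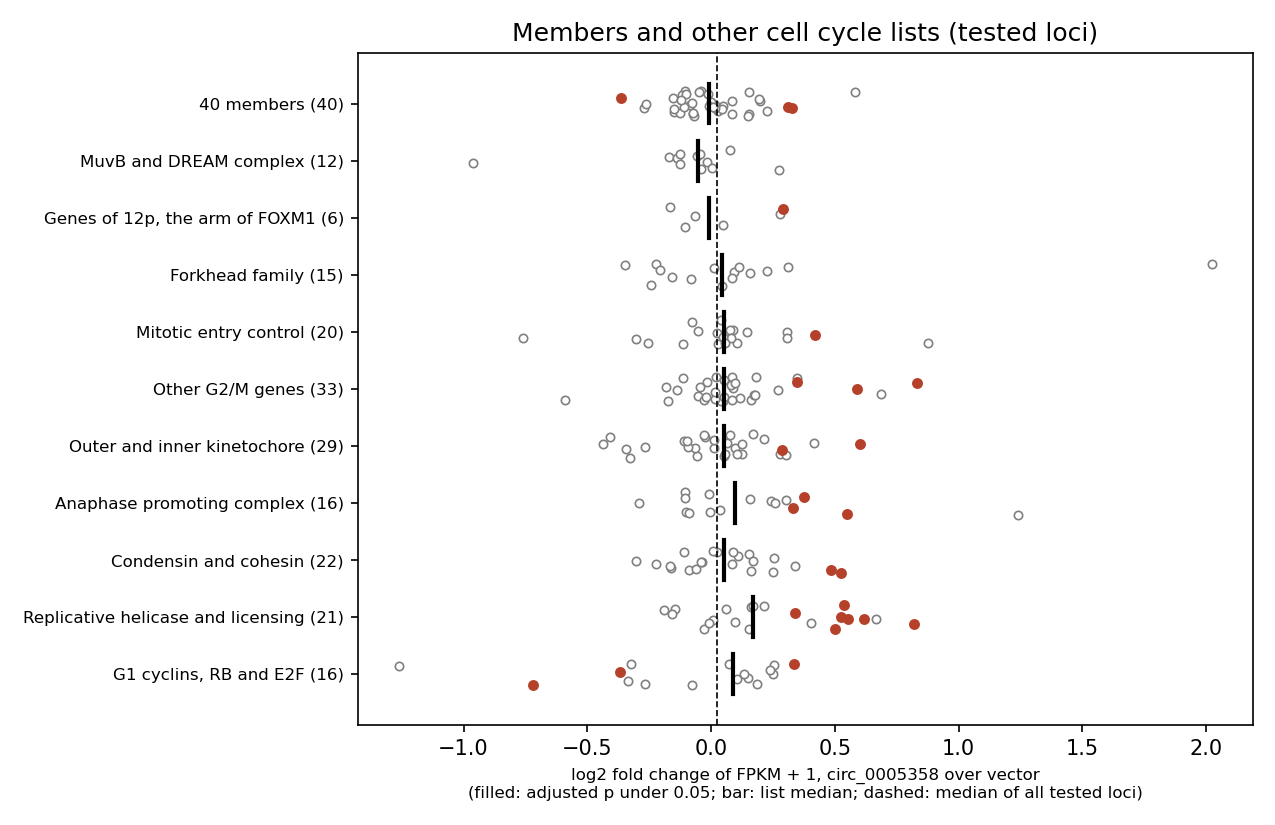
Log2 fold change of FPKM + 1, circ_0005358 over vector (x axis), of tested loci in the 40 members and 10 lists of related genes; points are loci, filled where the adjusted p is under 0.05, bars are list medians, and the dashed line is the median of all tested loci. The members lie near 0 with a median of -0.01, and the replicative helicase and licensing list has the most filled points, 7, and the highest median, 0.17.

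Across the series, 1171 of the 10295 tested loci were called, 660 higher and 511 lower with circ_0005358. The balance depended on scaling, with 531 higher and 567 lower after rescaling to the same sum and 568 higher and 581 lower after median ratio scaling. Log2 values correlated across loci at 0.932 to 0.939 between libraries of the same plasmid and at 0.908 to 0.917 between plasmids. Vector replicate 3 listed 27803 loci above 0, against 23227 to 23834 in the other 5 libraries. The depth of a library relative to the deepest, estimated from the value of 1 fragment, was 93.6%, 71.1% and 97.9% for circ_0005358 and 98.4%, 100% and 99.7% for vector, and its part in the results was not tested beyond leaving out circ_0005358 replicate 2, the shallowest, and vector replicate 3. Keratins and EPCAM, markers of epithelial cells, were all detected (7 of 7 tested), with a summed level of 623 to 704 FPKM with circ_0005358, against 1290 to 1367 FPKM with vector. Summed levels of endothelial and erythroid markers stayed under 1 FPKM in every library. Fibroblast markers summed to 3.601 to 4.12 FPKM with circ_0005358, against 9.10 to 12.4 FPKM with vector. That difference was mainly LUM, with means of 1.43 FPKM with circ_0005358 and 7.47 FPKM with vector. PDGFRA had 2.01 and 2.18 FPKM, DCN was higher with circ_0005358 (0.205 and 0.156 FPKM), and COL1A1 and COL1A2 were lower, both under 1 FPKM. Leukocyte markers summed to 1.48 to 16.4 FPKM with circ_0005358, against 10.4 to 13.4 FPKM with vector, nearly all of it CD14. No marker was at 0 in all libraries, and the part of these differences in the values of the mitotic genes was not tested.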

How the data were processed

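FPKM values (fragments scaled to transcript length and library size) were deposited by the authors as 1 table of 35544 loci and 6 libraries. Trimmomatic and HISAT2 with the build hg19 were used, per the submitters' processing notes; the FPKM program, its annotation and the library strandedness were not given in the sources used here. The table holds no counts, so depth is an estimate and no counting interval was drawn. Without known strandedness, fragments of overlapping genes cannot be told apart. Positions are from GENCODE 29 on GRCh38, not from the alignment.

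Loci with at least 1 FPKM in at least 3 libraries (10295) were fitted with limma 3.58.1 (R 4.3.3) on the log2 of FPKM plus a pseudocount of 1, using a variance trend and two-sided tests, Benjamini-Hochberg adjusted over all tested loci, with a threshold of 0.05 and 95% intervals. This scale understates the change of low genes. Exact permutation tests used scipy 1.17.1, and figures matplotlib 3.10.9. The fit was tested on simulated data. Members and lists were chosen with earlier results of these data known. Library values are given for FOXM1, MYBL2, called members, the 12 with the smallest p and the most abundant of each role; in each list, up to 4 called genes by smallest p, otherwise the gene with the smallest p, are named. SPC24, MCM5, MCM10 and CDC45 were named in addition, after their values were seen. The alternatives were pseudocounts of 0.1 and 0.5, no filter, a minimum of 5 FPKM, 3 other scalings, no variance trend, array weights, a replicate block, and leaving out libraries. Rescaling to the same sum also raised the values of every library, so the pseudocount of 1 weighed less there. That setting therefore changes more than the scaling between libraries.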

Additional observations from a re-analysis of the deposited data

How the results depend on the processing

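Results were recomputed under 17 alternatives. Of the 40 members, 3 were called; 0 were called with no filter on low values, and 0 to 3 (limma, adjusted p) when a library was left out, with 3 only without circ_0005358 replicate 2. Without both circ_0005358 replicate 2 and vector replicate 3 there were 0 members, 198 loci of the whole table and 4 loci of the 10 lists called. Calls over the whole table, 1171, came to 591 with no filter and to 485 to 761 with a library left out; calls in the lists, 22, came to 10 and to 10 to 15. Numbers are shared between groups. Deviations of same-numbered libraries correlated at 0.0644, 0.0481 and 0.0781, against -0.0537 to -0.0106 between libraries of different number. The deviations were taken from each group's own mean, which ties these values together. Positive values for same numbers go with negative ones elsewhere by construction, so the contrast is no separate evidence of pairs. The labels do not say whether the numbers mark pairs, and the main fit did not pair them. With a replicate block 0 members, 259 loci and 4 list loci were called. Where 0 members were called, 4 to 7 had an unadjusted limma p under 0.05. Among the members, CCNA2 alone gained a call, without circ_0005358 replicate 3. In the lists, 15 loci were called higher and 4 lower with the same sum, against 20 and 2 as reported; 129 loci were higher and 130 lower over the whole table with the block. No named called gene reversed, 30 of the 40 members kept their sign under all 17 alternatives, and the members' median log2 fold change ranged from -0.05 to 0.00. Fewer loci or libraries enter some of these fits, and the cause of the lost calls was not tested. Depth is known only as an estimate.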
